A study of Danio rerio with 9 samples.

Results

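The wild-type adult ventricle was described from the 5 libraries of fish that carried no mutant allele of *vegfc* or *vegfd*, out of 9 libraries in the series. The members were the columns wt1 to wt5 of the count table, named libraries 1 to 5 here. Each was made from the heart ventricle of adult zebrafish of 5 months, with the genotype *vegfc*(+/+);*vegfd*(+/+). The fish were size-matched and were kept under a cycle of light and dark. The series was made to compare these ventricles with ventricles of *vegfc* and *vegfd* double mutants, and the mutant libraries are not used here. RNA was taken from fresh tissue, selected by poly(A) and sequenced with its strand kept. The labels do not say whether a library came from 1 fish or from pooled fish, so the spread given here is that between libraries and may be partly technical. With 1 group there was nothing to test, and every value is a description with its spread.

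The zebrafish heart has a single ventricle, whose wall is a thin compact layer of myocardium over a mesh of muscular trabeculae. Its cardiomyocytes contract through the sarcomere, the array of myosin and actin filaments, and draw nearly all of their energy from mitochondria. Endocardium lines the cavity, epicardium covers the surface, and coronary vessels, blood cells and immune cells lie between, so that a ventricle library holds RNA of all of these. The zebrafish lineage passed through a whole-genome duplication that mammals lack, and many genes are therefore present as a pair of copies, often marked a and b.

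Counts were available for 16575 genes, with totals of 32958966, 23302636, 33407859, 31635237 and 32810446 in libraries 1 to 5. Library 2 was the shallowest, and it held 684 genes at 0 against 69 to 127 in the others. Levels are given as CPM, the number of counts a gene takes of each 1000000 counts in its library. A count of 3 is worth 0.0898 CPM in library 3 and 0.129 CPM in library 2. Counts were not divided by gene length, so an order of genes by CPM is an order of counts and favours long transcripts. Gene symbols are printed in lower case, as zebrafish genes are written. For 9218 genes the name table gave the symbol in capitals, as for the human gene, so that the name (*myh7*, *tnnt2* or *socs3*, for example) marks a related gene and not which zebrafish copy it is. Every pair of libraries differed by more than sampling noise, with a chi-square per degree of freedom of 43.0 to 122, so no library was a copy of another. The median fold difference over genes of at least 10 CPM was smallest between libraries 1 and 4 at 1.15 and largest between libraries 2 and 5 at 1.25.

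Markers of cardiomyocytes were high in all 5 libraries. The list was not drawn to tell ventricle from atrium, so the ventricle is taken from the tissue label. The 14 identifiers of the cardiomyocyte list summed to 134164, 138344, 138730.2, 130761 and 139462 CPM, and 13 of them were at or above 1 CPM. The exception was a second identifier under the symbol *tnnt2*, which averaged 0.281 CPM. The atrial list of 4 identifiers summed to 308 CPM in library 2 and 642 CPM in library 1, the lowest and highest of the 5. Most of it came from the 2 identifiers under the name *myh6*. ENSDARG00000079564, named so in capitals only, had 287 CPM in library 2 and 384 CPM in library 1. ENSDARG00000090637 had 2.103 and 244 CPM there. The name does not show that the first is the atrial gene, so the sum is not a measure of atrial tissue. The 6 gonad markers and 5 of the 10 skeletal muscle markers are not analysed here. Of the rest, *tnnt3* and *pvalb1*, fast-muscle genes, averaged 0.307 and 0.443 CPM. Both identifiers named *acta1*, for skeletal alpha-actin, were nevertheless abundant, as described below.

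Counts were concentrated in few genes. The 10 most abundant genes of each library held 27.3, 28.9, 27.9, 27.9 and 30.0% of its counts, and the 100 most abundant held 56.5 ± 1.28% (SD, n = 5). In libraries 1 to 5, the 58, 50, 61, 56 and 41 most abundant genes were enough to reach 50% of the counts. By that number library 5 was the most concentrated and library 3 the least, whereas library 2 needed the fewest genes to reach 90%, 2479. At the other end, 7322 genes with a mean of 1 to 10 CPM held 3.07% of the counts together, and 2837 genes under 1 CPM held 0.161%. At 10 CPM or above there were 6416 genes.

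The 13 protein-coding genes of the mitochondrial genome held about 1 count in 5. Their share was 18.9, 20.6, 19.2, 19.9 and 22.1% in libraries 1 to 5, a mean of 20.2 ± 1.28% (SD, n = 5). Library 5 was the highest, and 10 of the 13 genes had their highest value there, against 28.2% of all genes of at least 10 CPM. Subunits of cytochrome oxidase, complex IV of the respiratory chain, took 54.1 ± 2.18% of the mitochondrial counts from 3 genes. *mt-co1*, its catalytic subunit, stood at 49236, 53955, 51339, 53743 and 48795 CPM and was the most abundant gene of any kind by mean. Complex I subunits took 24.8 ± 1.84%, cytochrome b of complex III took 11.2 ± 0.631%, and the ATP synthase subunits *mt-atp6* and *mt-atp8* took 9.84 ± 0.188%. The split moved with the library: complex IV took 50.6% in library 5 and 54.2% to 56.6% in the others, whereas complex I took 27.6% in library 5 and 22.9% to 25.3% in the others. The lowest of the 13 was *mt-atp8*, at 1142, 731, 1270.1, 724 and 1263 CPM, a short gene that overlaps *mt-atp6* in animal mitochondrial genomes. Libraries 2 and 4 were its low ones. A pair of identifiers with no symbol, ENSDARG00000080337 and ENSDARG00000082753, averaged 6512 and 3663 CPM and were also highest in library 5. They are left unassigned here, and were counted neither as mitochondrial nor as named nuclear genes.

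**Figure D1:**
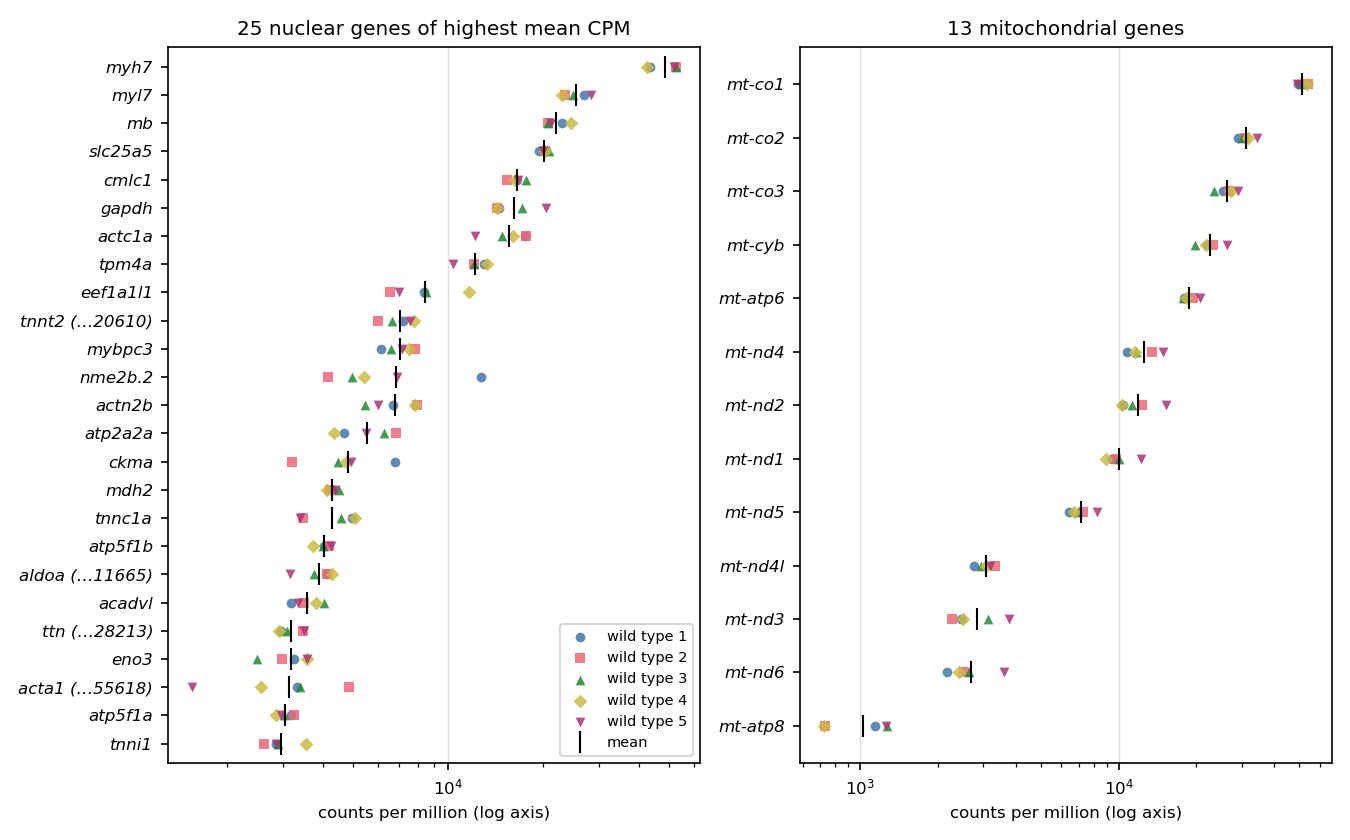
CPM on a log axis for the 25 named nuclear genes of highest mean (left) and the 13 mitochondrial genes (right), with a symbol for each of libraries 1 to 5 and a black bar for the mean. *myh7* led the nuclear genes in every library, *slc25a5* varied least among the 25, and *nme2b.2* stood apart in library 1.

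Among nuclear genes the sarcomere led. Its 58 measured members took 16.9, 17.6, 17.2, 16.8 and 16.8% of the counts in libraries 1 to 5, a spread of 0.347 percentage points (SD). *myh7* (ENSDARG00000079782), a cardiac myosin heavy chain, ranked first among nuclear genes in every library, at 43412, 52522, 52449.8, 42621 and 51645 CPM. Libraries 1 and 4 were its low pair. *myl7*, the cardiac regulatory light chain of myosin, was at 26827, 23399.8, 24822, 22948 and 28287 CPM. The essential light chain *cmlc1* varied less, at 16548, 15383, 17557, 16314 and 16558 CPM. Myosin therefore supplied 3 of the 5 nuclear genes of highest mean.

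The thin filament followed. *actc1a*, a cardiac alpha-actin, had 17429, 17652, 14735, 16072 and 12177 CPM and was lowest in library 5. Tropomyosin *tpm4a*, which winds along actin, had 13004, 12019, 12089.5, 13258 and 10322 CPM and ranked eighth in all 5 libraries. The troponin subunits switch the filament on when calcium rises: *tnnt2* (ENSDARG00000020610), the tropomyosin-binding subunit, averaged 7043 ± 724 CPM (SD, n = 5). The calcium-binding subunit *tnnc1a* averaged 4290.4 ± 806 CPM, with libraries 2 and 5 low at 3459.8 and 3398 CPM. The inhibitory subunit *tnni1* averaged 2952 ± 353 CPM. Of the proteins that hold the filaments in register, *mybpc3*, myosin-binding protein C, averaged 7043 ± 685 CPM, and *actn2b*, the alpha-actinin of the Z disc, averaged 6784 ± 1124 CPM. Titin, *ttn* (ENSDARG00000028213), averaged 3183 ± 283 CPM, and its transcript is very long, which a count not divided by length does not allow for.

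*acta1* (ENSDARG00000055618), named for skeletal alpha-actin, was the least steady sarcomere gene among the 25. It had 3330.2, 4862, 3397, 2547 and 1546 CPM, and ranked between 14 in library 2 and 45 in library 5. The second *acta1* identifier (ENSDARG00000036371) showed the same order of extremes, with 290.2, 1093, 289, 232 and 41.0 CPM. Library 2 was highest and library 5 lowest for both.

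Genes of energy metabolism took 11.3, 10.6, 11.1, 11.2 and 11.4% of the counts through 83 members. Myoglobin, *mb*, the oxygen store of muscle, had 22883, 20739.9, 20648, 24507 and 21152 CPM. *slc25a5*, the carrier that exchanges ADP for ATP across the inner mitochondrial membrane, had 19292, 20194, 20867, 20217 and 19933 CPM. Its CV, the SD divided by the mean, was 0.0283, the smallest among the 25. The citric acid cycle enzyme *mdh2* was nearly as steady, at 4279.7, 4217, 4504, 4118 and 4386 CPM. *gapdh*, a glycolytic enzyme often used as a reference gene, was not: it had 14430.2, 14217, 17111, 14297 and 20357 CPM, with library 5 the highest. Creatine kinase *ckma*, which buffers ATP at the myofilament, had 6790.4, 3193, 4465, 4742 and 4938 CPM, high in library 1 and low in library 2. *nme2b.2*, a nucleoside diphosphate kinase, had 12679, 4163, 4954, 5412 and 6884 CPM and a CV of 0.502, the largest among the 25. *acadvl*, which begins the oxidation of very long fatty acids, averaged 3570.4 ± 346 CPM.

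Nuclear subunits of the respiratory chain and ATP synthase, 93 in number, took 3.90 ± 0.220% of the counts. The catalytic ATP synthase subunits *atp5f1b* and *atp5f1a* led them at 4048 ± 192 and 3050.2 ± 168 CPM. The members as a group were steady: their median CV was 0.0982, against 0.176 over all genes of at least 10 CPM. Their median level was 270 CPM, and genes of 100 to 1000 CPM, a class nearer in level, had a median CV of 0.157. Of the members, 54 were highest in library 1, against 16.6% of the 6416 genes of at least 10 CPM, and 57 were lowest in library 2, against 27.5%.

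Cytosolic ribosomal proteins took 6.18, 4.42, 5.19, 6.30 and 4.87% of the counts through 95 identifiers. Libraries 1 and 4 were high and library 2 low. Of the 95, 38 were highest in library 1 and 44 in library 4, against 16.6% and 16.4% of the 6416 genes of at least 10 CPM. In library 2, 65 were lowest, against 27.5% of those genes. *rplp0*, of the ribosomal stalk, led with 2342, 1648, 1716, 2274 and 1639 CPM. The elongation factor *eef1a1l1*, which brings aminoacyl-tRNA to the ribosome, had 8400.1, 6522, 8498, 11665 and 6965 CPM with library 4 the highest and library 2 the lowest.

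The order of the nuclear genes was largely shared between libraries. Of the 25 named nuclear genes of highest count, 20 were in the top 25 of every library, and 29 genes entered the top 25 of at least 1. Of the top 100, 75 were common to all libraries, and of the top 1000, 768. The 25 of highest mean were 12 sarcomere genes, 8 of energy metabolism, 2 ATP synthase subunits and 3 others (*atp2a2a*, *eef1a1l1* and *nme2b.2*), and held 25.8% of the counts.

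Calcium handling and ion channels took 1.46 ± 0.111% of the counts through 40 members. The calcium pump *atp2a2a*, which refills the sarcoplasmic reticulum after each beat, had 4670.3, 6818, 6277, 4359.9 and 5497 CPM, with libraries 1 and 4 low as for *myh7*. Its inhibitor phospholamban, *pln1*, had 2892, 2796, 2504, 3055 and 2792 CPM and varied less. *slc8a1* (ENSDARG00000013422), the exchanger that removes calcium from the cell, averaged 849 ± 203 CPM, and *ryr2*, the calcium release channel, averaged 721 ± 86.5 CPM. The sodium pump subunit *atp1a3b* averaged 1318 ± 249 CPM.

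Natriuretic peptides, hormones that heart muscle releases under stretch, were unequal between libraries. *nppa* had 1093, 1958, 1115, 1719 and 609.9 CPM. *nppb* had 205, 986, 141, 202 and 69.1 CPM, so library 2 held 4.81 times the next highest value. Library 5 was lowest for both. Their receptors were low: *npr2* averaged 6.56 ± 1.75 CPM and *npr3* 6.13 ± 3.09 CPM.

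Cardiac transcription factors held far fewer counts than the contractile genes. The 26 identifiers took 0.0843, 0.0868, 0.0913, 0.101 and 0.124% of the counts, and 14 of them were highest in library 5, which was the highest library for 28.2% of the 6416 genes of at least 10 CPM. *nkx2-5*, a homeodomain factor of the cardiac lineage, had 149, 137, 147, 178 and 201 CPM. *gata5* averaged 131 ± 32.3 CPM, *hand2* 111 ± 42.0 CPM and *tbx5* 41.6 ± 12.1 CPM. For *hand2* library 5 stood at 180.1 CPM, above the 74.3 to 118 CPM of the others.

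Heat shock and chaperone genes took 0.806, 0.981, 0.801, 0.749 and 0.640% of the counts, led by *hsp90ab1* at 2279 ± 214 CPM. The muscle small heat shock protein *hspb7* was steady at 925, 977, 1012, 1013 and 999 CPM. Its relative *hspb6* was not, at 485, 741, 655, 369.6 and 118 CPM, and library 5 was the low one.

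Lists for cells other than cardiomyocytes held small shares. In bulk tissue, fewer cells of a type and less RNA per cell cannot be told apart. Endothelium and endocardium took 0.454, 0.510, 0.400, 0.434 and 0.326% of the counts. *spock3* led the list at 1333 ± 214 CPM. *kdrl*, a receptor for vascular endothelial growth factor, averaged 274 ± 45.5 CPM, and the junction protein *cdh5* averaged 188 ± 23.5 CPM. Of 5 lymphatic markers, 4 averaged 1 CPM or more and 1 less. *lyve1b*, a hyaluronan receptor of lymphatic endothelium, had 1.43, 0.215, 0.359, 0.474 and 0.762 CPM. *flt4*, the receptor that Vegfc and Vegfd act on, had 4.07, 2.45, 3.56, 2.40 and 1.77 CPM. *prox1*, a lymphatic factor that heart muscle also expresses, had 36.6, 60.2, 52.2, 65.4 and 57.0 CPM. The ligands themselves were low in these wild-type fish, with 122, 121, 86, 35 and 72 counts of *vegfc* and 154, 34, 77, 64 and 85 counts of *vegfd* in libraries 1 to 5.

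The list of epicardium, fibroblast and matrix genes took 0.478, 0.553, 0.386, 0.382 and 0.314% of the counts. Keratin *krt8* led it at 1188 ± 296 CPM. *anxa2*, an annexin that binds membranes, had 322, 1382, 298, 259 and 217 CPM and was far higher in library 2. *aldh1a2*, the retinoic acid enzyme of activated epicardium and endocardium in the zebrafish heart, was also highest in library 2, at 31.0, 156, 49.6, 35.2 and 23.4 CPM. The epicardial factors *tcf21* and *tbx18* went the other way. For *tcf21* the values were 9.89, 5.28, 8.56, 8.79 and 20.3 CPM and for *tbx18* they were 11.9, 5.96, 13.6, 9.33 and 17.98 CPM, lowest in library 2 and highest in library 5. Type I collagen differed again: *col1a1a* had 198, 70.08, 89.9, 90.3 and 71.4 CPM, highest in library 1. In all, 21 of the 41 members were highest in library 1, against 16.6% of the 6416 genes of at least 10 CPM, and 19 were lowest in library 2, against 27.5%.

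Erythrocyte genes took 0.252, 0.125, 0.115, 0.306 and 0.300% of the counts, low in libraries 2 and 3. The alpha-globin *hbaa1* had 1878, 770.2, 644, 2269 and 2118 CPM. *alas2*, the first enzyme of haem synthesis in red cells, had 102, 58.1, 53.0, 149.7 and 156 CPM and kept the same division. *cahz*, the carbonic anhydrase of red cells, had 106, 45.8, 41.4, 128 and 139.7 CPM. Of the 13 identifiers, 5 were lowest in library 2 and 6 in library 3, against 27.5% and 7.48% of the 6416 genes of at least 10 CPM. The erythroid skeleton gene *sptb* was not among them, at 167, 226, 246, 196 and 256 CPM. The beta-globins *hbba1* and *hbba2* are not analysed here.

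Smooth muscle and bulbus genes took 0.177, 0.172, 0.174, 0.173 and 0.132% of the counts. The *myl9* identifiers led the list at means of 830 and 514 CPM. *acta2*, smooth muscle actin, had 204, 141, 98.99, 118 and 45.4 CPM, highest in library 1 and lowest in library 5. *rgs5* and *pdgfrb* went the other way and were highest in library 5, at 32.2 and 15.1 CPM there. Of the 18 identifiers, 8 were lowest and 4 highest in library 5, against 24.1% and 28.2% of the 6416 genes of at least 10 CPM. Elastin *elnb*, which is abundant in the outflow tract, averaged 6.05 ± 1.65 CPM. The name *myh6*, which in zebrafish is that of an atrial myosin heavy chain, was carried by a pair of identifiers that behaved differently. The name table wrote it in capitals for the first and in lower case for the second, so the name does not show that the first is the atrial gene. ENSDARG00000079564 had 384, 287, 261, 285 and 256 CPM, whereas ENSDARG00000090637 had 244, 2.103, 177, 269 and 54.3 CPM. The second was nearly absent from library 2. Thrombocyte genes took 0.00823 ± 0.00300% of the counts, led by the *thbs1* identifiers at means of 24.5 and 23.5 CPM. *itga2b* had 15.7, 6.57, 6.08, 12.96 and 5.21 CPM, lowest in library 5. *gp1bb* had 16.1, 8.63, 4.58, 12.8 and 19.9 CPM and was, alone of the 9 identifiers, highest in library 5. Liver and yolk genes took 0.00406 ± 0.00179%, led by transferrin *tfa* at 18.3 ± 4.83 CPM. The yolk precursor *vtg1* had 1081, 96, 41, 147 and 0 counts in libraries 1 to 5, mostly in library 1.

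Paralogues were compared as shares of a family's counts, with no correction for length. In 30 families chosen for the heart, 12 had a leading gene with at least 90% of the counts, 17 had a leader with 50% to 90%, and 1 had none above 50%. The median share of the leader was 83.5%. The same gene led in every library in 28 of the 30. The exceptions were the oxidase subunit 4 and Mef2 families, and library 5 was the odd one in both.

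**Figure D2:**
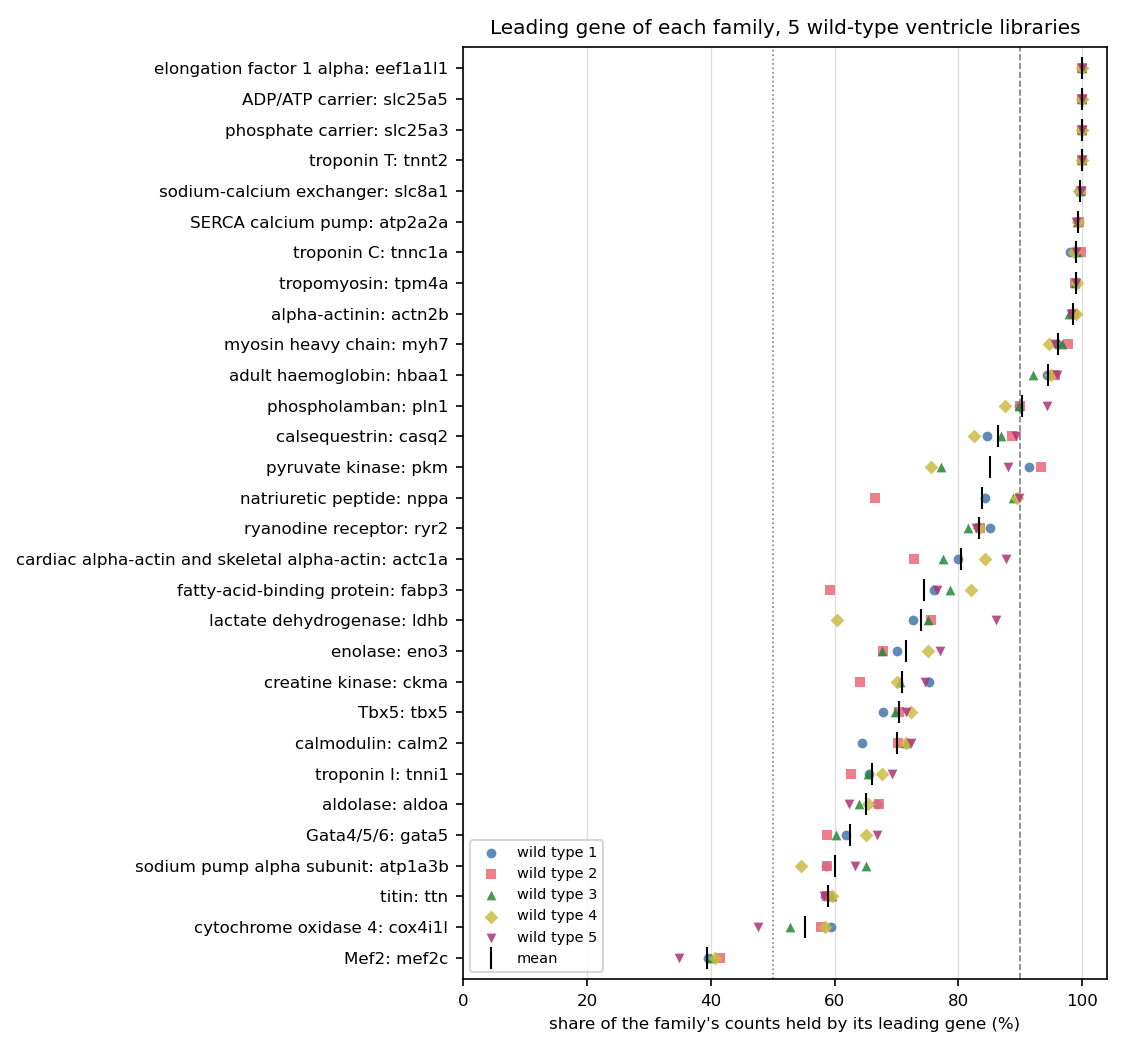
Share of a family's counts, in percent, held by its leading gene, with a symbol for each library and a black bar for the mean. The dashed line marks 90% and the dotted line 50%. From top to bottom the families run from near-complete use of 1 gene, such as the ADP/ATP carrier, to the Mef2 family, whose leader held 39.3%.

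Several contractile and calcium-handling families, kinds that are common among the 30 chosen, had 1 gene that held nearly all counts. Of the troponin T counts, *tnnt2* (ENSDARG00000020610) held 99.9 ± 0.0249%, and the slow skeletal *tnnt1* held 0.0495%. The pump *atp2a2a* held 99.2 ± 0.185%, with the skeletal *atp2a1* at 0.0263%. *slc8a1* held 99.6 ± 0.142% of the exchanger. Troponin C was divided 98.97 ± 0.656% to *tnnc1a*, and tropomyosin 98.9 ± 0.186% to *tpm4a*. The Z-disc *actn2b* held 98.5 ± 0.439% of the alpha-actinin counts. Outside the sarcomere, *slc25a5* averaged 20101 CPM and *slc25a4*, the main ADP/ATP carrier of the mammalian heart, averaged 4.03 CPM.

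The myosin *myh7* held 95.9, 97.7, 96.8, 94.6 and 95.6% of the heavy chain counts in libraries 1 to 5. The slow myosins *myh7ba* and *myh7bb* held 1.56% and 1.41%. The *myh6* identifiers held 0.594% and 0.313%. Phospholamban was less lopsided, with 89.7, 89.9, 89.8, 87.5 and 94.4% in *pln1* and the rest in *pln2*. Calsequestrin, the calcium store of the sarcoplasmic reticulum, was 86.4 ± 2.82% cardiac *casq2*.

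Other families were shared. Alpha-actin was 79.98, 72.8, 77.4, 84.3 and 87.6% *actc1a* in libraries 1 to 5, the remainder being mainly *acta1*. Troponin I was 66.1 ± 2.51% *tnni1* and 33.6% *tnni4a*. The titin pair was divided almost the same way in every library, 58.4, 58.8, 59.6, 59.6 and 58.3% to ENSDARG00000028213. That was the steadiest division among families whose leader held under 90%. Creatine kinase was 70.9 ± 4.49% cytosolic *ckma*, with the pair of mitochondrial *ckmt2* identifiers at 12.7% and 8.53%. Calmodulin was 70.0 ± 3.25% *calm2*, and of the Gata factors *gata5* held 62.5 ± 3.38%, *gata6* 34.1% and *gata4* 3.37%.

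The families whose leading share moved most between libraries were natriuretic peptide, lactate dehydrogenase, fatty-acid-binding protein and pyruvate kinase. Their SD was 8.24 to 9.91 percentage points, and alpha-actin followed at 5.80. Heart-type lactate dehydrogenase *ldhb* held 72.7, 75.6, 75.1, 60.4 and 86.0% of the family. Library 4 was low and library 5 high. Of the 2 *pkm* identifiers of pyruvate kinase, ENSDARG00000099730 led, with 91.4, 93.4, 77.2, 75.6 and 88.0%, lower in libraries 3 and 4. Muscle-type fatty-acid-binding protein *fabp3* held 76.0, 59.3, 78.7, 82.0 and 76.6% of its family, and the rest was nearly all *fabp4a*, the relative best known from fat cells, with 457, 712, 336, 386 and 429 CPM. Natriuretic peptide was 84.2, 66.5, 88.8, 89.5 and 89.8% *nppa*, with library 2 again low. For oxidase subunit 4, *cox4i1l* held 59.4, 57.8, 52.8, 58.4 and 47.7%, so that *cox4i1* led in library 5 alone.

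Over the whole table, 542 pairs of genes had symbols that differed only in a final a or b, and 404 of these pairs summed to at least 10 CPM. One copy held at least 90% in 106 pairs (26.2%) and at least 75% in 218. The copies were within 60% to 40% in 69 pairs. The median leader held 76.8%, and the same copy led in every library in 336 pairs (83.2%). The a copy led in 205 pairs and the b copy in 199. Some such symbols name separate genes in humans, such as *ldha* and *ldhb*. Without those, 246 pairs of at least 10 CPM remained, and 72 (29.3%) were held at 90% or more by 1 copy.

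The most skewed pairs of at least 100 CPM were *actc1a* over *actc1b*, *dtnba* over *dtnbb*, *epn1a* over *epn1b*, *obscnb* over *obscna* and *ghrb* over *ghra*. In the first, cardiac actin *actc1a* averaged 15613 CPM and *actc1b* averaged 3.49 CPM. In the last, the growth hormone receptor *ghrb* held 99.6%. The dystrobrevin *dtnba* averaged 243 CPM and its partner 0.423 CPM, and the giant sarcomere protein *obscnb* averaged 103 CPM and its partner 0.371 CPM. The endocytic adaptor *epn1a* averaged 111 CPM.

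The most even pairs were *prrc2b* with *prrc2a*, *marcksl1b* with *marcksl1a*, *atf4a* with *atf4b*, *ppiab* with *ppiaa* and *map1lc3b* with *map1lc3a*. The first and the last are separate genes in humans. The cyclophilins *ppiab* and *ppiaa* averaged 372 and 347 CPM, and *ppiab* held 43.7% to 63.0% over the libraries. The stress-response factors *atf4a* and *atf4b* averaged 171 and 160.1 CPM. Slow myosins *myh7ba* and *myh7bb* were also near even, and *myh7ba* led in only 2 of the 5 libraries. A further 911 pairs of identifiers shared 1 symbol, capitals not counted as a difference, and of 674 at 10 CPM or above, 197 (29.2%) had a leader at 90% or more. In 5 pairs, of either kind, the leader changed from at least 75% in 1 library to at most 25% in another, among them *socs3*, *tnfaip2*, *bcr* and *maf*. In the *socs3* pair ENSDARG00000025428 held between 20.7% and 95.5%, the low value being in library 5.

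**Figure D3:**
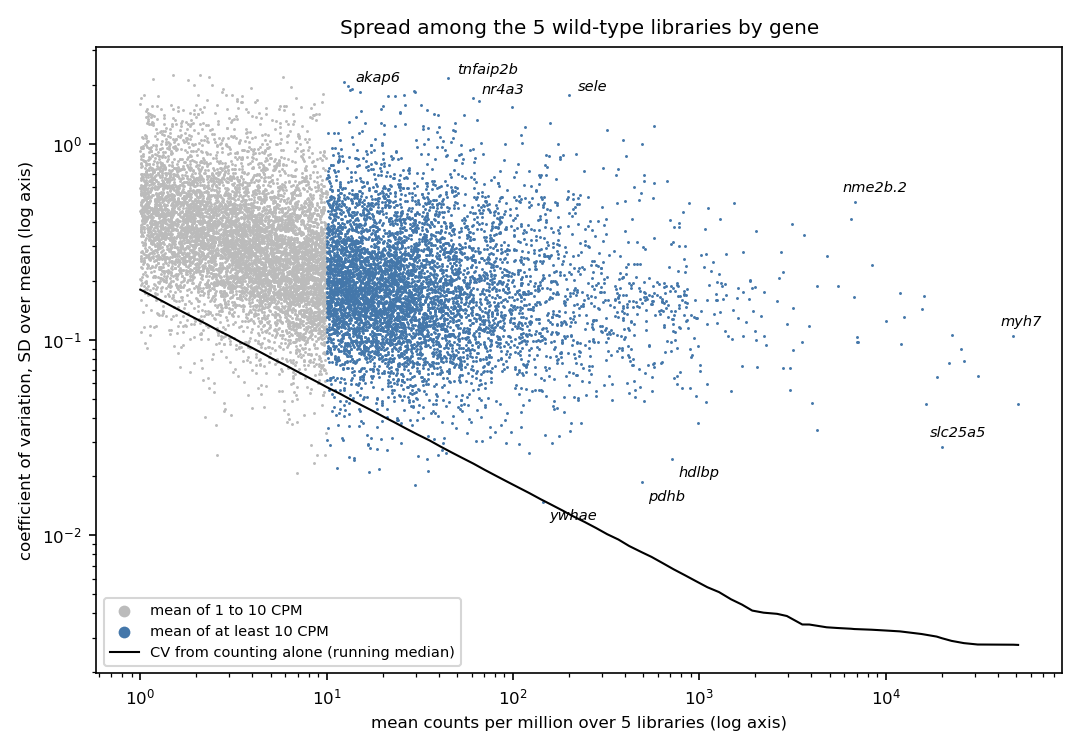
Coefficient of variation of CPM over the 5 libraries against mean CPM, both on log axes, for genes of at least 1 CPM (blue, 10 CPM or more). The black line is the CV that counting alone gives. Most genes lay well above the line, and *ywhae* lay on it.

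Spread between libraries was summarised by the CV of CPM in the 6416 genes of at least 10 CPM. The median CV was 0.176, and counting alone gave a median of 0.0357. The quartiles were 0.117 and 0.275. A CV under 0.1 was found in 1137 genes (17.7%), and a CV of at least 0.5 in 476 (7.42%). Spread fell slowly with level, from a median of 0.309 at 1 to 10 CPM to 0.143 at 1000 CPM and above. The CV was at least 3 times its counting value in 80.7% of the genes.

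Of the 20 genes of lowest CV, 17 had a CV at or below their counting value, so their order was set within counting error. *ywhae*, a 14-3-3 adaptor, had 147, 147, 143, 143 and 145 CPM and a CV of 0.0149, just under its counting value of 0.0151. *pdhb*, a subunit of pyruvate dehydrogenase, had 500.2, 481, 501, 483 and 491 CPM, and the RNA-binding vigilin gene *hdlbp* had 708, 694, 717, 701 and 739 CPM. *fxr1*, an RNA-binding protein of striated muscle, had 123, 116, 123, 125 and 120.5 CPM. Of the 20, only *pdhb*, *hdlbp* and *fxr1* had a CV above their counting value. The other 17 included *ywhae*, *actr10*, *agfg1b*, *ube2ib*, *polr2e*, *cratb*, *gps2*, *faf1*, *fkbp15b*, *zgc:77486*, *chmp2b*, *septin10*, *golph3*, *nup98*, *zyg11* and *cdadc1*, and so a dynactin subunit, a SUMO-conjugating enzyme, a subunit of RNA polymerase II and a nucleoporin. TMM scaling gives each library a factor, on the assumption that most genes do not differ between libraries. The factors were 0.937 to 1.056. With TMM-scaled CPM, 0 of the 20 were among the 20 lowest, so that which genes were steadiest depended on the scaling.

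Of the 20 genes of highest CV, 14 were highest in library 2, 3 in library 3, 2 in library 5 and 1 in library 1. The choice by CV favours genes with 1 high library. Most of the 14 averaged under 10 CPM in the other libraries and reached a mean of 10 CPM only through library 2. The 14 therefore largely reflect how the genes were chosen and are only a description. Only 4 of the 20 had a mean of at least 50 CPM, and all 4 were among the 20 of highest CV at that level. *tnfaip2b*, which tumour necrosis factor induces, led with 0.485, 220.4, 1.77, 0.980 and 1.55 CPM. The adhesion receptor E-selectin, *sele* (ENSDARG00000009123), which inflamed endothelium displays to leukocytes, had 28.7, 837, 77.9, 21.4 and 36.7 CPM. The matrix protease *mmp9* had 1.001, 58.4, 1.68, 0.316 and 0.457 CPM. *bcl3*, a nuclear partner of NF-kB, had 1.12, 60.6, 3.68, 1.93 and 1.43 CPM. Library 2 stood alone in each of these genes.

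**Figure D4:**
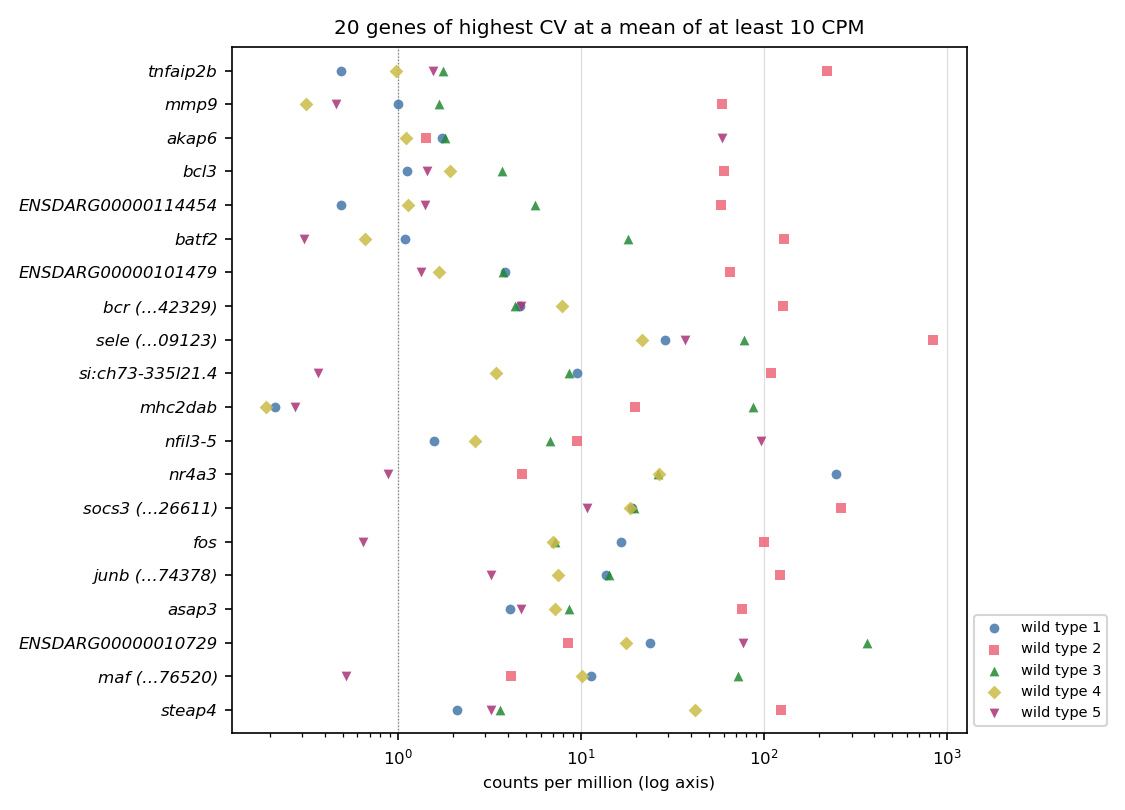
CPM on a log axis in each of the 5 libraries for the 20 genes of highest CV among genes with a mean of at least 10 CPM. Red squares, for library 2, lie far to the right in 14 of the 20 genes, and the other libraries lead in *akap6*, *mhc2dab*, *nfil3-5*, *nr4a3*, ENSDARG00000010729 and *maf*.

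Regulators of transcription and of cytokine signalling were among the other genes of the 20 that peaked in library 2. *socs3* (ENSDARG00000026611), a feedback inhibitor of cytokine receptors, had 18.9, 263, 19.5, 18.4 and 10.8 CPM. *fos* had 16.6, 100.2, 7.24, 6.99 and 0.640 CPM and *junb* (ENSDARG00000074378) had 13.7, 123, 14.2, 7.49 and 3.23 CPM, both subunits of AP-1. The related factor *batf2* had 1.09, 127, 18.1, 0.664 and 0.305 CPM, raised also in library 3. Library 2 was the highest for 13 of the 54 identifiers of the immediate early and stress-response list, which holds further AP-1 genes, and library 1 for 18. Of the 6416 genes of at least 10 CPM, 22.4% were highest in library 2 and 16.6% in library 1. The count for library 2 was thus near its share over those genes. *atf3*, an AP-1 relative, had 116, 11.7, 35.4, 28.3 and 4.30 CPM and was highest in library 1. Beyond the 20, and named after their values were seen, the chemokine *cxcl18b* had 14.3, 189, 38.1, 6.29 and 24.5 CPM. The NF-kB inhibitor *nfkbiaa* had 6.49, 85.2, 14.6, 7.14 and 18.1 CPM. The remaining genes of the 20 that peaked in library 2 were *bcr* (ENSDARG00000042329), *asap3*, *si:ch73-335l21.4*, *steap4* and the unnamed ENSDARG00000114454 and ENSDARG00000101479, with 58.1 to 127 CPM there.

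Library 2 was at least 2-fold above all others in 108 genes and at least 2-fold below all others in 77, of the 6416. A gene high in a single library can reach the mean of 10 CPM through that library, as *tnfaip2b* and *mmp9* did. The numbers of genes above all others, here and for the other libraries below, are therefore only descriptions. On the low side, besides *myh6* (ENSDARG00000090637), were the second troponin C gene *tnnc1* at 96.5, 4.68, 37.1, 68.2 and 33.9 CPM and complement factor D, *cfd*, at 140.4, 16.5, 74.9, 88.3 and 112 CPM. It was also the library with the lowest total and the most genes at 0, with 23302636 counts against at least 31635237 in the others. After every library was thinned to the total of library 2, 484 genes had a CV of at least 0.5, against 476 without thinning. The 108 and 77 genes were not counted again after thinning, so the part of depth in them was not tested.

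Library 5 was marked by low genes. It was at least 2-fold below all others in 183 genes, against 7 to 77 in the other libraries, and at least 2-fold above in 30. The list of immediate early and stress-response genes took 0.631, 0.758, 0.634, 0.621 and 0.107% of the counts, and 44 of its 54 identifiers were lowest in library 5, against 24.1% of the 6416 genes. The list, which also holds *fkbp5*, *klf9* and both *pdk2* identifiers, was chosen with earlier results of these data known. The count is therefore only a description. *fkbp5*, a chaperone partner that glucocorticoids induce, had 711, 387, 856, 577 and 4.998 CPM. *socs3* (ENSDARG00000025428), the other copy, had 323, 1806, 418, 314 and 2.80 CPM, so library 5 was 112 times below the next lowest. *btg2*, an antiproliferative gene, had 154, 371, 139.7, 109 and 2.01 CPM. *cebpd*, a transcription factor of acute responses, had 325, 711, 360.5, 381 and 13.7 CPM. In all of these library 5 lay far below a group of 4 libraries that differed much less among themselves, except where library 2 was high.

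Of 33 identifiers of clock genes, 20 were lowest in library 5, against 24.1% of the 6416 genes of at least 10 CPM, and 10 were highest there, a share close to the 28.2% over those genes. The Rev-erb gene *nr1d2a*, on the repressing arm of the clock, had 148, 130.3, 211, 165 and 6.37 CPM, whereas the activator *bmal1* (ENSDARG00000006791) had 7.37, 10.3, 8.92, 5.82 and 20.1 CPM. *nfil3-5*, of a family of clock output factors, was among the 20 genes of highest CV, with 1.58, 9.53, 6.73, 2.62 and 96.0 CPM. The time of day at which each ventricle was taken is not given in the sources used here, so its part in these values was not tested.

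Genes high in library 5 also included *akap6*, a scaffold for kinases at the nuclear envelope of muscle cells, with 1.73, 1.42, 1.80, 1.11 and 58.7 CPM. Named after their values were seen, *rrad*, a small GTPase that restrains L-type calcium channels, had 67.0, 215, 72.7, 189 and 540.3 CPM. The sodium pump subunit *atp1b1* (ENSDARG00000076833) had 21.1, 52.2, 127, 21.8 and 355 CPM. The potassium channel gene *kcnh6a*, the zebrafish gene of the rapid repolarising current, had 67.4, 58.1, 99.5, 61.0 and 219 CPM.

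Library 3 was set apart by genes of immune cells and antigen presentation. The leukocyte list took 0.133, 0.102, 0.319, 0.134 and 0.126% of the counts, and 20 of its 34 identifiers were highest in library 3, against 16.4% of the 6416 genes. Only 16 of the 34 averaged at least 10 CPM, as all of the 6416 did. *cd74a*, the invariant chain of MHC class II, had 234, 123, 697, 289.8 and 178 CPM. *b2m*, the light chain of MHC class I, had 677, 568, 1453, 622 and 748 CPM. *mhc2dab*, a class II beta chain, had 0.212, 19.6, 87.0, 0.190 and 0.274 CPM and was thus raised in library 2 as well. The T-cell kinase *lck* had 1.55, 1.89, 9.85, 1.71 and 2.19 CPM, and *zap70*, which acts next to it, had 2.55, 1.63, 14.4, 2.66 and 2.86 CPM. Library 3 was the highest for both. The macrophage receptor *marco* did not follow, at 42.7, 35.1, 43.4, 71.1 and 24.8 CPM. In all, 5 of the 34 were highest in library 1, 2 in library 2, 5 in library 4 and 2 in library 5. Among these, *nccrp1* was highest in library 1, *csf1ra* in library 2 and *cd79a* in library 4. Also high in library 3 were the factor *maf* (ENSDARG00000076520), at 11.3, 4.16, 71.9, 10.1 and 0.518 CPM, and the unnamed ENSDARG00000010729, at 23.7, 8.50, 366, 17.6 and 76.7 CPM. The interferon-induced *gbp1*, named after its values were seen, had 11.1, 43.9, 158, 8.09 and 23.04 CPM, and the immunoproteasome subunit *psmb8* had 33.8, 14.5, 110.0, 17.9 and 44.9 CPM.

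A further set in library 3, chosen after its values were seen, was of digestive enzymes that the exocrine pancreas makes. The trypsin gene *prss59.2* had 163, 34, 736, 32 and 0 counts in libraries 1 to 5, and the elastase *ela3l* had 93, 7, 429, 13 and 2 counts. Library 3 was the highest for both, and also for *prss59.1*, *ctrb.3*, *ctrl*, *amy2a* and both *cel* identifiers. Thus 8 of 9 such genes were highest in library 3, against 16.4% of the 6416 genes of at least 10 CPM. These 8 averaged at most 5.89 CPM, under that level. Since the set was chosen by its values, the count is only a description. The sum of the 9 genes without *ctrb.1* was 17.7, 6.52, 82.0, 2.28 and 0.762 CPM. The chymotrypsinogen gene *ctrb.1* was at odds with these, at 4.28, 98.3, 342, 44.9 and 378 CPM. Library 5 was its highest, although library 5 held almost none of the rest.

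Libraries 1 and 4 had the fewest genes that stood above all others. Library 1 was at least 2-fold above all others in 10 genes and library 4 in 9. In library 1 the nuclear receptor *nr4a3* had 246, 4.76, 26.2, 26.6 and 0.884 CPM. Named after its values were seen, *serpinf1*, a secreted matrix-binding protein, had 89.0, 6.14, 7.93, 7.46 and 13.2 CPM. The matrix genes *sparc*, *dcn* and *col1a2* were all highest in library 1 too, at 268, 189.9 and 199 CPM there. In library 4 the kinase *pdk2* (ENSDARG00000059054), which shuts off pyruvate dehydrogenase, had 139, 33.04, 99.7, 506 and 9.45 CPM, and *cpt1b*, the gate of fatty acids into mitochondria, had 138, 100.5, 149, 253 and 109 CPM.

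Some genes were near 0 in 1 or more libraries and well expressed in another. With near 0 taken as 3 counts or fewer and well expressed as 100 or more, there were 150 such genes, of which 107 were near 0 in library 2 and 77 in library 2 alone. The count rested on single libraries: without library 2 it was 69, and without library 3 it was 98. After all libraries were thinned to the total of library 2 it was 94, of which 58 were near 0 in library 2. The other libraries held 14 to 29 genes near 0 each after thinning.

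The largest differences among these came from genes with over 1000 counts in another library. *myrfl*, a relative of a membrane-bound transcription factor, had 2452, 2, 1017, 3106 and 3 counts in libraries 1 to 5. *si:dkey-85k15.7* had 1996, 0, 2852, 1588 and 1 counts, and *si:dkey-85k15.6*, named from the same clone, had 854, 1, 1299, 676 and 0 counts. All 3 were present in libraries 1, 3 and 4 and near 0 in libraries 2 and 5. *nlrc11*, of the NLR family of innate sensors, had 0, 1102, 2556, 0 and 0 counts, present in libraries 2 and 3. Another cluster named alike, *herc56.4* and *herc56.3*, was present in libraries 1 and 5. The first had 233, 0, 1, 0 and 305 counts and the second 199, 12, 1, 0 and 304 counts. Class II genes divided between libraries too. *mhc2dgb* had 0, 0, 0, 0 and 344 counts and *mhc2dga* had 0, 0, 0, 0 and 247 counts, all in library 5, whereas *mhc2dab* was found mainly in libraries 2 and 3.

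Single genes with a role known elsewhere showed the same pattern. The coagulation factor subunit *f13a1* (ENSDARG00000045453) had 2056, 402, 4, 3030 and 2 counts. The calcium channel gene *cacna1aa* had 363, 124, 798, 1 and 580 counts, near 0 in library 4 alone. The cytokine *il11a*, which zebrafish express in regenerating tissue, had 0, 671, 0, 15 and 1 counts, most of them in library 2. The small heat shock gene *cryab* had 0, 0, 1, 160 and 384 counts, nearly all in libraries 4 and 5. Which fish, line or allele stood behind each library was not given in the labels, and the part of genetic background in these values was not tested.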

How the data were processed

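The deposited table held whole-number counts of reads per Ensembl gene. The authors made it by trimming paired-end, strand-marked reads, aligning them with STAR 2.5.2a to GRCz11 and counting them per gene with featureCounts 1.5.0. Genes were listed where the mean count over all samples of the series, mutants included, reached 10, so that genes below that are not analysed here. Whether a pair of reads counted once is not given in the sources used here.

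The 5 wild-type columns were divided by their column totals and multiplied to CPM. Gene lengths were not used, so levels of different genes are shares of counts. Symbols were found for 15812 of 16575 identifiers, 9218 of them written in capitals. With case ignored, 1897 identifiers shared 932 symbols, of which 1792 identifiers shared theirs in the same case. The division of reads between copies under 1 symbol, or between near-identical paralogues, is uncertain. The authors counted only reads that passed a strict limit on mapping quality, so near-identical copies can also lose reads. CV was SD over mean (n = 5), and the counting CV was that of a Poisson count. TMM factors and dispersions were computed with edgeR 4.0.16 in R 4.3.3. The CV computation was checked on simulated data. Counts of list members by highest or lowest library include members under 10 CPM. The shares set beside these counts cover only genes of at least 10 CPM, so the sets are unlike. That level was reached by 16 of 34 leukocyte, 42 of 54 immediate early, 25 of 33 clock and 17 of 26 transcription factor identifiers. Named genes were the 25 nuclear genes of highest mean, the mitochondrial genes, the leaders of lists, families and pairs, and the 20 genes of highest and of lowest CV. Others were named after their values were seen. The members and lists were chosen with earlier results of these data known. Columns of mutant samples were not used, and no test was made. A few genes are not reported here.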

Additional observations from a re-analysis of the deposited data

Results flagged for a closer look

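In each measure below, the highest or the lowest library lay far from the other 4 relative to the range of the 5, a distance that chance gives in about 1 of 20 groups of 5. Of 91 values looked at, apart from the genes chosen for a high CV, 10 stood out in this way. The gene lists behind some of them were chosen with earlier results of these data known. The 10 are therefore only a description and cannot be set against the rate that chance gives. Library 2 stood out in its total of 23302636 counts, in the share of *nppa* in natriuretic peptide counts, 66.5%, and in the share of *fabp3* in its family, 59.3%. Library 5 stood out in the share of counts of immediate early and stress-response genes, 0.107%, in that of smooth muscle and bulbus genes, 0.132%, and in the share of *mef2c* (ENSDARG00000029764) among Mef2 counts, 34.8%. Library 3 stood out in the share of leukocyte genes, 0.319% against 0.102% to 0.134% in the others. Library 1 stood out in the share of *calm2* among calmodulin counts, 64.4%, and in that of the skeletal muscle list, 2.32% against 1.31% to 1.35%. That list included *nme2b.2* and *ckma*, both highest in library 1. Library 4 stood out in the share of *eef1a1l1* among the elongation factor counts, 99.957% against 99.986% to 99.991%, a difference of small size.

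Among the 20 genes of highest CV, which were chosen for their spread and so had to show such gaps, 19 did. In library 2 these were *tnfaip2b* (220.4 CPM), *mmp9* (58.4), *bcl3* (60.6), ENSDARG00000114454 (58.1), *batf2* (127), ENSDARG00000101479 (64.8), *bcr* (127), *sele* (837), *si:ch73-335l21.4* (108), *socs3* under ENSDARG00000026611 (263), *fos* (100.2), *junb* under ENSDARG00000074378 (123) and *asap3* (75.7). In library 5 they were *akap6* (58.7) and *nfil3-5* (96.0), in library 3 *mhc2dab* (87.0), ENSDARG00000010729 (366) and *maf* (71.9), and in library 1 *nr4a3* (246).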

How the results depend on the processing

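The mitochondrial share of 20.2% ranged from 19.7% to 20.5% when each library was left out in turn, and was 21.2% with both large unnamed identifiers added. Of the 25 most abundant nuclear genes, 24 or 25 were retained under every setting tried. The count of a and b pairs with a leader at 90% or more, 106 of 404, ranged from 105 to 112 without 1 library. It was 218 at a threshold of 75%, 48 of 178 at a pair sum of at least 50 CPM, and 197 of 674 for pairs that share a symbol. The count of genes with a CV of at least 0.5, 476 of 6416, ranged from 372 without library 2 to 584 without library 4. It was 2031 of 13738 at a mean of at least 1 CPM and 121 of 1754 at a mean of at least 50 CPM.

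The lists of genes depended more on the setting than the counts did. Of the 20 genes of highest CV, 7 were retained without library 2, 5 with the SD of log2 CPM and 12 with the edgeR dispersion, against 19 with TMM scaling. Of the 20 of lowest CV, 0 were retained with TMM scaling, 9 after thinning and 4 to 7 without 1 library. Levels per coding length were not run, since gene lengths were not used here. At 1 to 10 CPM the median CV from counting alone was 0.0956, against 0.309 measured, and genes under 1 CPM were not included. No paired analysis was possible because there was 1 group and no result came from a test.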
